A study of Mus musculus with 10 samples.

Results

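The probes described here are those whose identifier begins with NONMMUT, the mouse transcript series of NONCODE, a database that gathers non-coding RNAs and mostly long ones. They were taken by that prefix among the spots that are no controls. There were 28773 such probes of 97836 on the array, and all 28773 also had a row in the authors' deposited value table. Each probe is 1 transcript record, and several records can describe transcripts of 1 gene. Of these probes, 20534 were printed as 2 spots and 8239 as 1 spot. The files give no gene name, genome position or sequence for a NONCODE probe, so members are called by their NONCODE number, and no sequence is shown.

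Livers of 10 male mice aged 42 days were each hybridised to 1 one-colour array. The 5 control mice were wild-type C57BL/6J on a regular mouse diet. The 5 hyperlipidemic mice were ApoE-/-, also labelled C57BL/6J, on a high-fat diet with 2.5% cholesterol and 15% fat. Apolipoprotein E is the lipoprotein component by which the liver takes up remnant particles. Genotype and diet changed together, so their effects cannot be told apart. The deletion is a germline one, so every cell of the animal lacks the protein and the liver is not the only organ affected. The labels name liver as the source, although the molecule field names genomic DNA and the extraction text describes a blood RNA kit with globin removal. For the tissue, 5 liver transcripts named through RefSeq, chosen with earlier results of these data known, were looked up. In both groups Hnf4aos, Cyp2d13, Cyp2d37-ps and Adh6-ps1 exceeded background in 5 of 5 livers, while Serpina4-ps1 did so in 2 of 5 control and 4 of 5 hyperlipidemic livers. Blood transcripts were not looked up, so these values cannot tell liver from a mixture of liver and blood. The labels do not describe how the animals of a group were housed or sampled, so p-values measure only the spread between these samples.

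Long non-coding RNAs are transcribed and often spliced like messenger RNAs but carry no long open reading frame. Many stay in the nucleus, where some guide chromatin proteins or act on neighbouring genes, and others bind proteins or microRNAs in the cytoplasm. They are as a class scarcer and more restricted to certain tissues than messenger RNAs. In liver, single long non-coding RNAs are known to act on cholesterol and fatty acid metabolism, while most catalogued transcripts have no assigned role. None of the NONCODE transcripts named below has a function given in the sources used here.

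Most NONCODE transcripts gave no signal above background in these livers. A probe was counted on an array when all its unflagged spots carried the scanner software's flag for a signal well above background. By that measure 17535 probes (60.9%) were below on all 10 arrays, 4215 (14.6%) were above on all 10, and 7023 were above on 1 to 9 arrays. The Agilent catalogue probes of the same arrays, which carry no gene name here, were below on all 10 arrays in 35.2% and above on all 10 in 42.9% of 39027. RIKEN cDNA clone probes stood at 60.9% and 12.2%, predicted RefSeq non-coding transcripts at 70.5% and 9.96%, and curated ones at 61.2% and 18.0%. The flag depends on how well a probe binds as well as on how much RNA is there, so a probe below background gives only an upper bound. Probes with 1 spot were above on all 10 arrays in 15.6% of cases and those with 2 spots in 14.3%.

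Detection differed between arrays more than between groups. In control replicates 1 to 5 the share of NONCODE probes above background was 25.8%, 19.6%, 21.8%, 36.2% and 23.4%. In hyperlipidemic replicates 1 to 5 it was 25.8%, 21.3%, 19.1%, 22.9% and 23.8%. Control replicate 4 was the highest array and the 2 groups overlapped otherwise. The control mean was 25.4% ± 6.49 (SD, n = 5) and the hyperlipidemic mean 22.6% ± 2.5 (SD, n = 5), and the control mean without replicate 4 was 22.6% as well. The same array was highest in each other class, at 61.8% against 49.1% to 56.3% for catalogue probes. Of the 2516 NONCODE probes above background on 1 array only, 2011 (79.9%) were above it on control replicate 4, and without that array 9227 in place of 11238 probes were above background at least once.

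**Figure D1:**
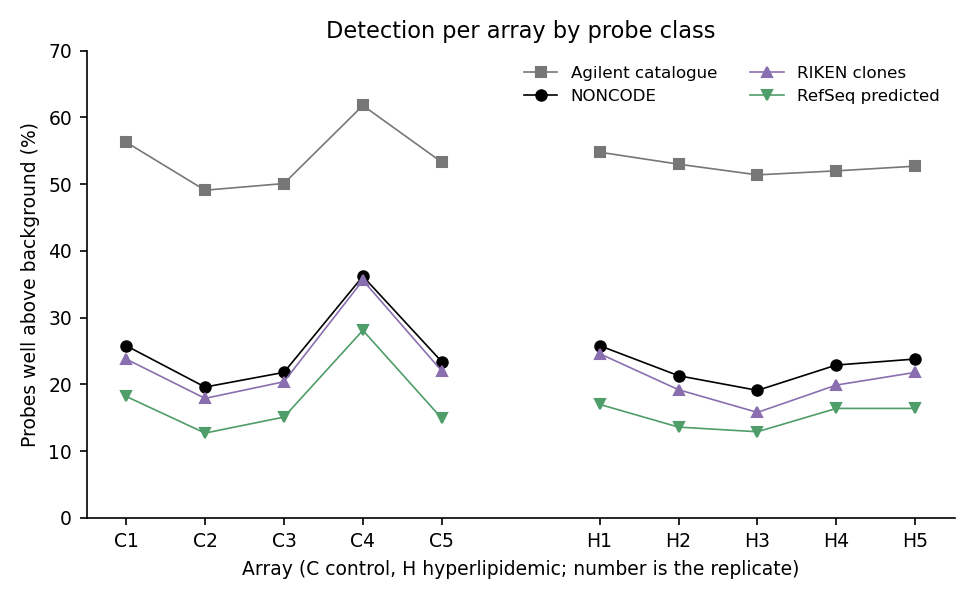
Share of probes well above background (%, vertical axis from 0) on each of the 5 control (C) and 5 hyperlipidemic (H) arrays, for 4 probe classes; lines join the arrays of a group and imply no order. NONCODE probes lie between 19.1% and 36.2%, control replicate 4 is the highest array in all 4 classes shown, and the catalogue probes lie above the others throughout.

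Signal that crossed background in step with the groups was rare. Only NONMMUT012539 had all 5 control arrays and 0 of the 5 hyperlipidemic arrays above background, and 0 probes showed the opposite. Its log2 levels relative to each array's 75th percentile, the scale used for all levels here, were -0.87, -0.86, -1.24, -1.18 and -1.46 in control and -1.93, -1.93, -1.34, -1.66 and -1.51 in hyperlipidemic livers. The groups overlapped, with hyperlipidemic replicate 3 above control replicate 5. The fitted difference was -0.55 (SE 0.20, limma adjusted p = 0.792). With the hyperlipidemic arrays set to the dimmest signal that still had the flag, where that is higher, the control mean was 1.33-fold higher. A probe without the flag can be brighter than that signal, as in hyperlipidemic replicate 3, so this is no strict bound. The spread between arrays is not part of this value. With a wider rule, 98 probes were above on at least 4 control and at most 1 hyperlipidemic array, and 14 the other way round. Leaving out control replicate 4 and asking for at least 3 of the other 4 control arrays in the first case, and at most 1 of them in the second, gave 106 and 62. These patterns were not counted in the other probe classes, so nothing particular to NONCODE probes is read from them.

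Signal of the detected transcripts spanned a wide range. Over the 4215 members above background on all 10 arrays, the mean log2 level ran from -1.21 to 10.11, with a median of 1.0 and quartiles of 0.12 and 2.35. Brightness is given to describe the probes only, since probes bind unequally and 1 probe's level says nothing about another transcript's abundance. The array medians over these members lay between 0.97 and 1.09. The brightest examples were NONMMUT056508, NONMMUT024530, NONMMUT027011, NONMMUT047823 and NONMMUT057031, and their differences between groups were -0.05, 0.12, -0.04, 0.07 and -0.01. In NONMMUT056508 control replicates 1 to 5 read 10.22, 10.50, 10.06, 9.68 and 10.21, and hyperlipidemic replicates 1 to 5 read 9.77, 9.94, 10.16, 10.31 and 10.28. Its groups overlapped, and the 95% interval of the difference ran from -0.49 to 0.39. For the other 4 the intervals lay between -0.48 and 0.62. Control replicate 4 was the lowest array in all 5 of these probes.

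Arrays of a group differed more than duplicate spots of an array did. Each mouse is 1 array, so the spread between mice also holds labelling, hybridisation and slide. For 2927 members with 2 spots and signal on all 10 arrays, the SD between the spots of an array had a median of 0.12 (log2), and the SD between mice of a group, pooled over both groups, a median of 0.37. The SD between mice was the larger of the 2 in 2838 of them (97.0%), with a median ratio of 3.19. The array replicates are averages over both spots where a probe has 2. Among the steadiest members, NONMMUT018006 lay between 2.89 and 3.08 in control and between 3.03 and 3.15 in hyperlipidemic livers, with a pooled SD of 0.07. NONMMUT027768 and NONMMUT039522 each had a pooled SD of 0.08.

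**Figure D2:**
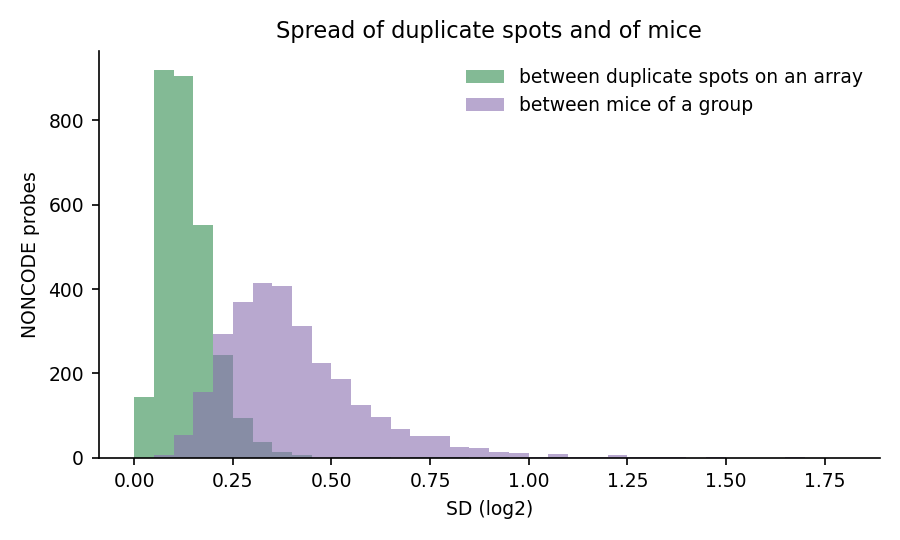
Histogram of the SD (log2, horizontal axis) between duplicate spots of an array (green) and between mice of a group (purple) for the same 2927 NONCODE probes with 2 spots and signal on all 10 arrays; the vertical axis counts probes. Duplicate spots centre on 0.12 and mice on 0.37.

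Over the 5971 NONCODE probes that were tested, the pooled SD between mice had a median of 0.41, with 5% of members under 0.20 and 5% above 0.85. The median was 0.38 over all 30243 features tested and 0.37 over the catalogue features. Among features above background on all 10 arrays it was 0.37 for members, 0.37 for all features and 0.36 for catalogue features. The median SD of the 5971 tested members was 0.34 among control and 0.43 among hyperlipidemic mice. The hyperlipidemic SD was the larger in 63.5% of them against 61.7% of all features. Without control replicate 4 the control median was 0.25, and the hyperlipidemic SD was the larger in 78.0% of members against 83.3% of all features. That array lay a median of 0.428 from its group's median level over members with signal on all 10 arrays, while the other control arrays lay 0.0355 to 0.191 away and the hyperlipidemic arrays 0.181 to 0.282.

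Among the members with the largest spread within groups, many took the same course over the arrays. The largest pooled SDs were 1.74 for NONMMUT057158, 1.66 for NONMMUT042203 and 1.46 for NONMMUT071652. In NONMMUT057158 control replicates 1 to 5 read 2.86, -0.63, 1.79, 4.12 and -1.15, and hyperlipidemic replicates 1 to 5 read 2.20, 0.42, -0.45, 0.54 and -0.04. NONMMUT042203 read 2.38, -0.46, 1.58, 4.09 and -1.11 in control and 2.18, 0.61, -0.48, 0.01 and 0.12 in hyperlipidemic livers. NONMMUT071652 read 4.04, 1.29, 3.15, 5.17 and 0.64, then 3.74, 2.43, 1.60, 2.11 and 1.77. All 3 were highest in control replicate 4 and lowest in control replicate 5, so 2 mice of the same group marked both ends of the range. Control replicates 1 and 3 and hyperlipidemic replicate 1 were on the high side in each of the 3. Their group differences of -0.86, -0.81 and -0.53 had intervals that include 0, and with slide as a fixed block they turned to 1.87, 1.88 and 1.96. With spike-in sets as a block the difference of NONMMUT071652 turned to 0.19.

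The same course held for most of the 50 members with the largest pooled SD, all at 0.97 or more. Of these, 32 were highest in control replicate 4 and 28 lowest in control replicate 5. Relative to each member's own mean, the median of the 50 was 2.10 in control replicate 4, 0.92 in control replicate 1, 0.84 in hyperlipidemic replicate 1 and -1.20 in control replicate 5. A smaller number took another course, with 16 of the 50 highest in hyperlipidemic replicates 3 to 5, of which 14 peaked in hyperlipidemic replicate 4. The arrays' share of spots above background followed the first course in part. It was 49.2% in control replicate 4, 39.9% in control replicate 1 and 33.6% in hyperlipidemic replicate 3. Control replicate 5, where the median of the 50 was lowest, had a share of 36.9%. That was close to the share of 36.7% in control replicate 3, where the median was 0.19. The correlation of the 50 with that share over the 10 arrays had a median of 0.794, and 0.651 without control replicate 4. Its part in these levels was not tested. Over all 4215 members with signal throughout, the correlation was above 0.8 in 7.19% and below -0.8 in 5.53%, against 2.37% and 18.3% of 16761 catalogue features. Without control replicate 4 these shares were 1.87% and 0.617% for members and 0.603% and 1.84% for catalogue features.

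**Figure D3:**
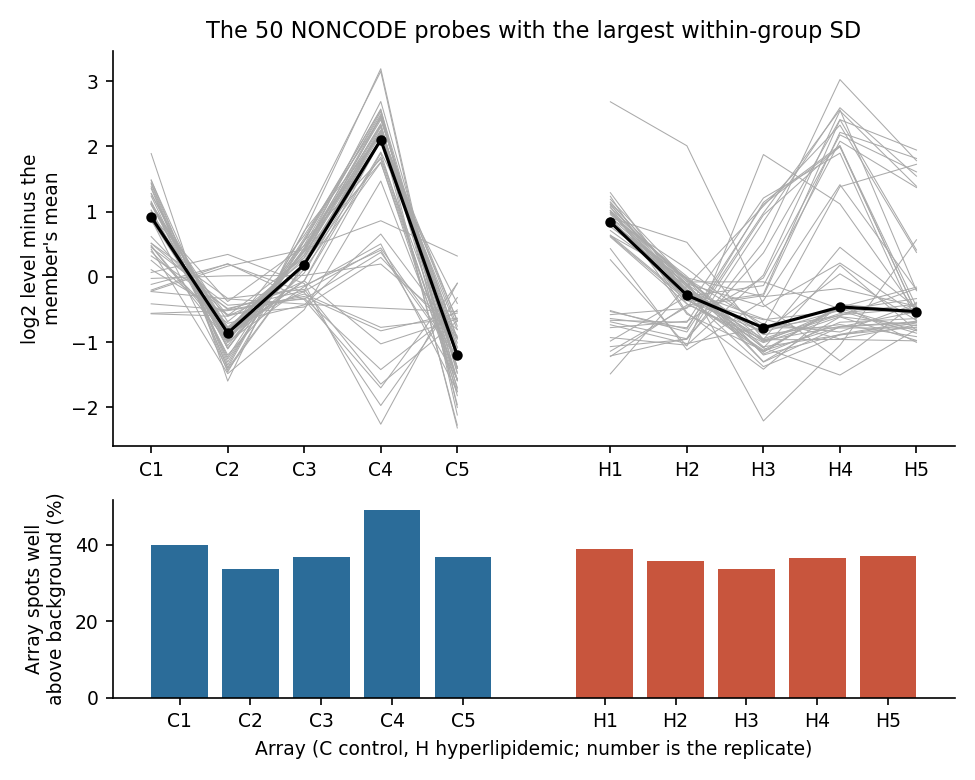
Upper panel: log2 level of each of the 50 NONCODE probes with the largest within-group SD, minus the probe's own mean (grey), and their median (black), on the 5 control (C) and 5 hyperlipidemic (H) arrays; lines join the values of 1 probe. Lower panel: share of all spots well above background per array (%). The median peaks at 2.10 in control replicate 4 and is lowest, at -1.20, in control replicate 5.

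The comparison of groups asked which long non-coding transcripts differed in the hyperlipidemic livers. Few NONCODE transcripts passed the test, which does not show that the others were alike in both groups. Among 5971 members tested, the limma test found 4 that rose with hyperlipidemia and 0 that fell, at an adjusted p under 0.05 with p-values adjusted over all 30243 features. Over all features 0.0694% passed in either direction, 0.043% as higher and 0.0265% as lower, so that the members' share, at 0.067%, lay near the background. The other 22802 members were too dim for the test or, in 282 cases, had an array without an unflagged spot. At an unadjusted p under 0.05 there were 200 members higher and 242 lower, or 7.40% of members against 5.81% of all features, of which 2.98% were higher and 2.83% lower. The higher part of these was 45.2%, and it turned to 66.2% with arrays centred on their median and was 37.4% with the 75th percentile taken over probes detected on all arrays. No direction is therefore read from that split. It also differed with detection. Among the 4215 members above background on all 10 arrays, 140 were higher and 84 lower at this p (5.31%). Among the 1756 tested members that were not, 60 were higher and 158 lower (12.4%). Such members could enter the test through the group where they are brighter. The same share was not counted over all features of this kind, so nothing particular to NONCODE probes is read from it. In a fit limited to features above background on all 10 arrays, 6.05% of members and 5.11% of all features reached this p. With 1 array left out, the number of members at this p, higher and lower together, was 761 without hyperlipidemic replicate 1 (12.7% of members against 9.6% of all features), 286 without replicate 3 (4.79% against 4.07%) and 293 without replicate 4 (4.91% against 4.3%).

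**Figure D4:**
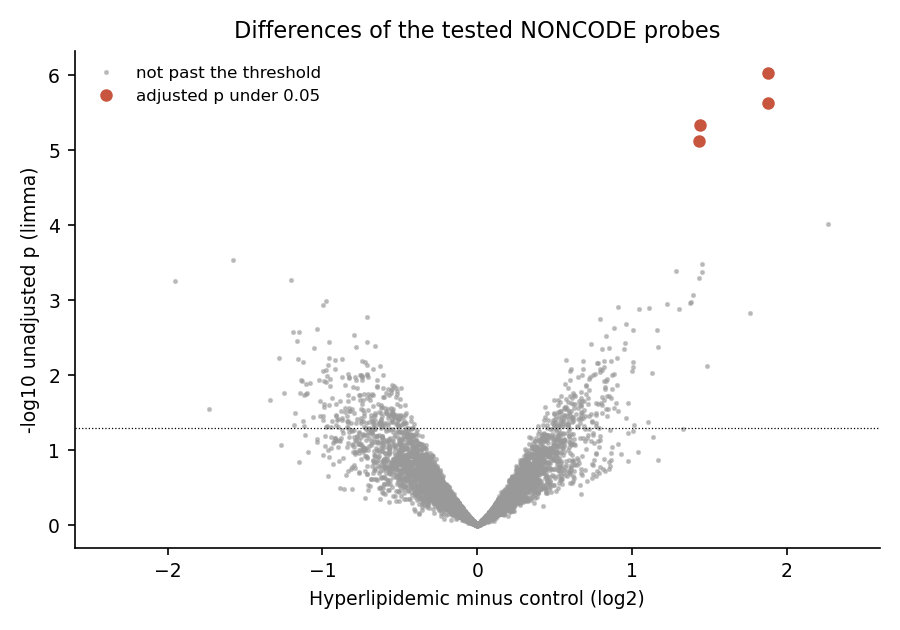
Each point is 1 of 5971 tested NONCODE probes, with the difference hyperlipidemic minus control (log2, horizontal axis) and -log10 of the unadjusted limma p (vertical axis); the dotted line marks an unadjusted p of 0.05. The 4 red points at log2 differences of 1.43 to 1.88 passed at an adjusted p under 0.05.

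NONMMUT060378 had the smallest p. Control replicates 1 to 5 read -0.47, 0.52, 0.15, -0.57 and 0.12, and hyperlipidemic replicates 1 to 5 read 2.02, 1.97, 1.83, 1.72 and 1.59. The lowest hyperlipidemic array lay above the highest control array by more than the range of the hyperlipidemic arrays. Its level rose 3.67-fold, from a control mean of -0.05 ± 0.46 to 1.83 ± 0.18 (SD, n = 5 each), and the difference of 1.88 had an SE of 0.23 (limma adjusted p = 0.00258). The probe was above background on all 10 arrays.

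NONMMUT060682 rose from a level mostly below background. It read -1.67, -1.60, -1.54, -2.49 and -2.17 in control and -0.16, 0.34, 0.34, -0.57 and -0.01 in hyperlipidemic livers. The groups did not overlap, and control replicates 4 and 5 were the lowest. Its signal exceeded background in 1 of 5 control livers and in all 5 hyperlipidemic ones. It entered the test through the group where it is high, and the size of its difference depends on dim control values. That difference was 1.88 (SE 0.25, limma adjusted p = 0.00579), and 1.68 with dim arrays raised to the lowest signal that counted as above background.

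NONMMUT012712 read -1.27, -1.27, -0.89, -1.35 and -0.79 in control and 0.33, 0.17, 0.73, 0.36 and 0.04 in hyperlipidemic livers. Its mean rose from -1.11 ± 0.25 to 0.33 ± 0.26 (SD, n = 5 per group), a difference of 1.44 (SE 0.20, limma adjusted p = 0.00988) or 2.71-fold, and its signal exceeded background in 4 of 5 control livers and all 5 hyperlipidemic ones. NONMMUT063778 read 0.81, 1.29, 1.11, 0.87 and 1.55 in control and 2.61, 2.59, 2.94, 2.44 and 2.21 in hyperlipidemic livers. It was above background on all 10 arrays and rose from 1.13 ± 0.30 to 2.56 ± 0.26 (SD, n = 5 per group), a difference of 1.43 (SE 0.21, limma adjusted p = 0.015) or 2.70-fold. In both transcripts every hyperlipidemic array lay above every control array.

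**Figure D5:**
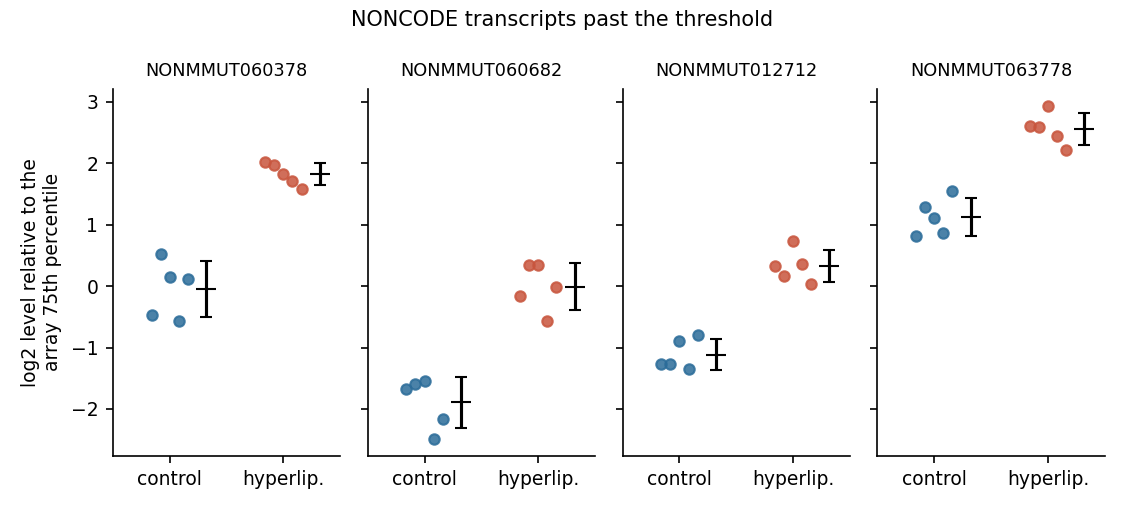
Log2 level relative to the array's 75th percentile (vertical axis) of the 4 NONCODE transcripts that passed the test, with 1 point per mouse, 5 control (blue) and 5 hyperlipidemic (red), and the group mean with its SD in black. The groups do not overlap in any of the 4.

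The groups were spread unevenly over the 3 slides. Control replicates 1 to 4 were alone on slide 1 and hyperlipidemic replicates 4 and 5 alone on slide 3, so that slide 2, with the other 4 arrays, was the only one to hold both groups. A fixed block for slide leaves control replicate 5 as the only control beside hyperlipidemic mice. With it, 0 members passed, and 121 reached an unadjusted p under 0.05 (2.03% against 1.59% of all features). The fitted differences were then 1.82 for NONMMUT060378 (SE 0.42, limma adjusted p = 1.0), 2.34 for NONMMUT060682 (adjusted p = 0.433), 1.20 for NONMMUT012712 and 1.17 for NONMMUT063778 (adjusted p = 1.0 for both). Within slide 2 alone, where the differences are the same by construction and the control arm is 1 array, 0 members passed and 133 reached an unadjusted p under 0.05 (2.23% against 1.79% of all features). With slide as a random block all 4 passed. The correlation between arrays of a slide was estimated at 0.0726 in that fit, so it lay close to the fit without blocks. It also draws on the contrast between slides that hold a single group. The arrays were also cut into 3 sets at the largest gaps in the signal of a spike-in RNA added at labelling, E1A_r60_1. The number of sets was chosen in advance, and the labels name no such sets. They were control replicates 1 to 3, control replicates 4 and 5 with hyperlipidemic replicates 1 and 2, and hyperlipidemic replicates 3 to 5. Under a block for spike-in set, NONMMUT060378 differed by 2.22 (adjusted p = 0.0912), NONMMUT060682 by 2.42 (adjusted p = 0.0469), NONMMUT012712 by 1.32 (adjusted p = 0.654) and NONMMUT063778 by 1.39 (adjusted p = 0.636). In the mixed set NONMMUT060378 stood at -0.57 and 0.12 in control replicates 4 and 5 and at 2.02 and 1.97 in hyperlipidemic replicates 1 and 2. The groups of this transcript do not overlap, so any set with both groups shows this order and nothing further is read from it.

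Leaving out arrays 1 at a time kept NONMMUT060378 at 1.75 to 2.02 and NONMMUT060682 at 1.73 to 2.02, and both passed each time. NONMMUT012712 missed the threshold without control replicate 1 (limma adjusted p = 0.057). NONMMUT063778 missed it without control replicate 1 (0.0728), control replicate 3 (0.0642) or hyperlipidemic replicate 2 (0.053). Without control replicate 1 the number of members that rose was 2, and without control replicate 5 it was 7. With normexp background correction NONMMUT060682 and NONMMUT012712 differed by 0.77 and 0.65 and did not pass (adjusted p = 0.0842 and 0.0849), while NONMMUT060378 and NONMMUT063778 differed by 1.23 and 1.12 and passed. With arrays centred on their median NONMMUT012712 and NONMMUT063778 did not pass (adjusted p = 0.0708 and 0.113), nor did NONMMUT063778 without a filter on dim probes (0.0576).

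The array-to-array course was compared between members. Over the 10 arrays the member most like NONMMUT012712 was NONMMUT063778, with a Pearson correlation of 0.977, and the member most like NONMMUT060378 was NONMMUT063778 too, at 0.966. NONMMUT060682 was most like NONMMUT060378, at 0.936, followed by NONMMUT041595 at 0.925, which differed by 0.31 (SE 0.17, limma adjusted p = 0.827). These values hold the group difference for which the 4 were picked. With each group centred on its own mean, NONMMUT012712 and NONMMUT063778 correlated at 0.784 and NONMMUT060378 and NONMMUT063778 at 0.674. The other 4 pairs lay between 0.138 and 0.438, among them all 3 pairs with NONMMUT060682. All are descriptions over 10 arrays that share slides and spike-in sets.

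Groups did not overlap in 60 members, 34 higher and 26 lower, which is 1.0% of members against 0.972% of all features (0.612% higher and 0.36% lower). Of the 34, 24 were above background on all 10 arrays, with differences from 0.20 to 1.88 over the 34, and of the 26 this held for 9, with differences from -1.95 to -0.26. The 4 that passed are among the 34. Of those that did not pass, NONMMUT059423 differed by 1.45 and had 1 control array above background. It read -2.13, -2.87, -1.68, -2.56 and -1.01 in control and -0.60, -0.12, -0.59, -0.76 and -0.92 in hyperlipidemic livers (limma adjusted p = 0.200), and the difference was 1.01 with dim arrays raised. Only without control replicate 5, which stood closest to the hyperlipidemic arrays, did it pass (adjusted p = 0.0272, a difference of 1.71).

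In the other direction NONMMUT070113 had the largest fitted difference. It read 2.09, 2.38, 0.35, 0.80 and 0.84 in control and -0.88, -0.59, 0.32, -1.93 and -0.20 in hyperlipidemic livers, so control replicate 3 and hyperlipidemic replicate 3 nearly touched. The difference was -1.95 (SE 0.44, limma adjusted p = 0.256). NONMMUT024767 was even in control, from -0.35 to 0.13, and ran from -1.99 to -0.51 in hyperlipidemic livers, with a difference of -1.20 (adjusted p = 0.256). NONMMUT041490 lay between -0.80 and -0.42 in control. In hyperlipidemic livers it read -0.99, -0.98, -3.20, -2.44 and -0.91, and the 2 lowest arrays carried most of the difference of -1.14 (adjusted p = 0.756). With dim arrays raised to the lowest signal above background that difference was -0.59.

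Across members the differences centred near 0. Their median was -0.03, with quartiles of -0.25 and 0.18 and the central 90% from -0.64 to 0.54. All features together had a median of 0.03 and a central 90% from -0.56 to 0.50. The members' median turned to 0.08 with arrays centred on their median, a setting that raised the median of all features from 0.03 to 0.14, and was -0.10 with the percentile over probes detected on all arrays. A difference of over 2-fold was fitted for 67 members, 31 higher and 36 lower, against 0.873% of all features (0.4% higher and 0.473% lower). For 4420 members (74.0%) the 95% interval lay within a 2-fold change in both directions, against 80.5% of all features, and the median SE was 0.25.

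Transcripts with neighbouring NONCODE numbers resembled each other more than distant ones did. Among the tested members, 666 pairs had consecutive numbers, and their levels correlated over the 10 arrays with a median Pearson r of 0.28 (quartiles -0.17 and 0.63). The median was 0.16 at a gap of 2, 0.11 at gaps of 3 to 5, 0.05 at 6 to 10 and 0.01 beyond 1000. With each group centred on its mean the median for consecutive numbers was 0.29. A correlation above 0.9 was found in 46 of the 666 pairs (6.91%), against 0.566% of the pairs over 1000 numbers apart. What neighbouring numbers share is not given in the files, and pairs that report the same transcript would correlate as well. No tested member within 15 numbers of the 4 transcripts that passed correlated with them above 0.9. The highest correlation over the 10 arrays was 0.498, between NONMMUT063778 and NONMMUT063783. With each group centred it was 0.814, between NONMMUT063778 and NONMMUT063772. Of the 4, only NONMMUT012712 had a tested member at a consecutive number. NONMMUT012713, the number after NONMMUT012712, differed by -0.46, and the tested members within 15 numbers of the 4 differed by -0.57 to 0.30, with adjusted p between 0.827 and 0.999.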

How the data were processed

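Per the file headers, the authors extracted spot intensity with Agilent Feature Extraction 11.5.1.1 on a design of build mm9, and the headers report background-subtracted signals and a spatial detrending fit for each array; the processed signal was used. The deposited intensity values are not normalized between arrays. The deposited value table holds log2 values and equals the mean log2 signal per probe plus a constant per array (SD of the difference 0.00). Here log2 values were scaled by subtracting the 75th percentile of the 175906 spots that are no controls. Spots flagged as outliers, 3 to 3945 an array, were dropped, and a probe's spots averaged. The test took features with all unflagged spots above background in 4 or more of the 5 livers of either group. RefSeq probes of 1 gene (assembly GRCm38.p6 names) were reduced to the brightest. The two-sided test was limma's moderated linear model (version 3.58.1, R 4.3.3), and p-values of all 30243 features were adjusted together by Benjamini-Hochberg. For normexp the median spot signal was used. The method was tested on simulated data, where it recovered 34 of 100 changes of 2-fold and 87 of 100 of 4-fold, with 9 false calls. The simulated noise was independent between arrays and held no slide or spike-in effect, unlike these arrays. Members and lists were chosen with earlier results of these data known. The text names members that passed, the 3 largest non-overlapping differences per direction with the higher group wholly above background, members above background on all arrays of 1 group and none of the other, 5 bright ones, those with the largest and smallest SD, and the 2 most like each that passed; others were chosen after their values were seen. The number of arrays limits the precision.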

Additional observations from a re-analysis of the deposited data

Results flagged for a closer look

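The named members were searched for arrays at odds with the rest of their group, by the gap to the nearest array relative to the group's range. The 2 groups' shares of NONCODE probes above background were searched too. Of 50 groups of 5 values, 3 held such an array, and chance gives about 1 in 20, or 2.5. NONMMUT024530 stood at 9.23 in control replicate 4, below a range of 9.94 to 10.21 on the remaining control arrays. NONMMUT047823 stood at 9.30 in the same array, below a range of 9.85 to 10.04. NONMMUT018006, one of the steadiest members, stood at 3.03 in hyperlipidemic replicate 1, against 3.13 to 3.15 on the other hyperlipidemic arrays.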

How the results depend on the processing

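No paired analysis was possible because the labels give no replicate numbers that join a control mouse to a hyperlipidemic one. Starting from 4 members higher and 0 lower, 2 were higher with arrays centred on their median, with normexp, with a filter on all 10 arrays (which tests fewer members) and with spike-in sets as a block (of these last, NONMMUT060682 is one of the 4 and NONMMUT034468, among the 50 most variable members, is not), and 0 with slide as a fixed block or within the slide of both groups. With 1 array left out, 2 (without control replicate 1) to 7 (without control replicate 5) were higher and 0 lower. A rule of unadjusted p under 0.05 and at least 2-fold took 26 higher and 30 lower. Over all features, 13 higher and 8 lower became 6 and 5 with the array median, 6 and 4 with the filter on all 10 arrays, 0 and 3 with the slide block, 0 and 2 within its mixed slide, 6 and 3 with spike-in sets, 5 lower with normexp, and 105 and 122 by the rule of unadjusted p and 2-fold. With 1 array left out, 8 (without control replicate 1 or hyperlipidemic replicate 2) to 18 were higher and 6 to 8 lower. The 60 members whose groups did not overlap became 33 with the filter on all 10 arrays. They became 76 to 251 with an array left out, where fewer arrays overlap less by construction. The largest counts came without hyperlipidemic replicates 1 (251) or 5 (128) or control replicates 1 (92), 4 (94) or 5 (149). These counts were not made over all features, so nothing particular to NONCODE probes is read from them. The median pooled SD of 0.41 was 0.24 with normexp and 0.38 to 0.43 with an array left out. Of 593 fitted differences of named members under alternatives, 20 no longer passed and 2 newly passed. Only the 4 members that had passed, with at most 25 settings each, could stop passing, and all 20 were values of these 4. The share of 593 therefore does not measure how stable they were. Of the values that had passed, 0 changed sign, while some that had not passed did. The cause was not tested in any other case. Settings for spread, for overlap and for counts with any-spot detection were chosen after seeing the data.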

Other observations

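In the fit without blocks the largest difference among tested NONCODE transcripts belonged to NONMMUT070037, which was chosen after its values were seen. It was 1.05 with slide as a fixed block, where NONMMUT060682 stood at 2.34, and 2.55 with spike-in sets as a block, where NONMMUT070025 stood at 2.68. It read 2.29, 2.38, 1.40, 0.90 and 3.62 in control and 4.57, 5.05, 4.38, 3.58 and 4.35 in hyperlipidemic livers. The groups overlapped, with control replicate 5 just above hyperlipidemic replicate 4, and the difference of 2.27 (SE 0.42) did not pass (limma adjusted p = 0.110). It passed without control replicate 5. NONMMUT070035 and NONMMUT070025, numbered 2 and 12 below it and chosen in the same way, differed by 0.72 and 1.76 (adjusted p = 0.827 and 0.459). NONMMUT070025 read 0.46, 0.54, 0.28, -0.26 and 1.26 in control and 2.98, 3.37, 1.25, 0.80 and 2.68 in hyperlipidemic livers, with hyperlipidemic replicates 3 and 4 among the control values. With each group centred on its mean, the 3 transcripts correlated at 0.729 to 0.916 over the 10 arrays. All 3 were above background on all 10 arrays, and in each of them control replicate 4 was the lowest array.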
